A study of Mus musculus with 3 samples.

Results

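The genes described here are 10 components of the JAK and STAT pathway in adult mouse lung endothelial cells (ECs): the kinases *Jak1* and *Jak2*, the transcription factors *Stat3*, *Stat5a*, *Stat5b* and *Stat6*, and the feedback inhibitors *Socs1*, *Socs2*, *Socs3* and *Cish*. They were chosen by gene symbol, and all 10 have a row among the 24346 genes of the deposited table. The ECs came from wild type C57BL/6J male mice aged 6 to 8 weeks and were sorted fresh from lung as CD31+ CD45- Podoplanin- cells after an antibody to VE-cadherin had been injected into the circulation. There are 3 libraries, S38, S44 and S52, all of this 1 group, so no contrast of treatments, organs or ages could be made and no test between groups was run. Whether a library came from 1 mouse or several is not given in the sources used here, and the spread between libraries may be partly technical. Values are in FPKM, fragments per kilobase of gene model and per 1000000 fragments, which scales for length and so allows levels to be compared between genes.

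Receptors for cytokines such as interleukins, interferons and growth hormone have no kinase of their own. They hold a Janus kinase (JAK) on their inner side, and ligand binding lets the kinases phosphorylate one another, the receptor and a STAT protein, which pairs with another STAT, enters the nucleus and binds DNA. Genes that STATs switch on include the SOCS family and *Cish*, whose proteins block the kinase or the receptor and, through a SOCS box, bring in an elongin and cullin ubiquitin ligase. In ECs this pathway carries signals of inflammation, interferon and blood-borne hormones.

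**Figure D1:**
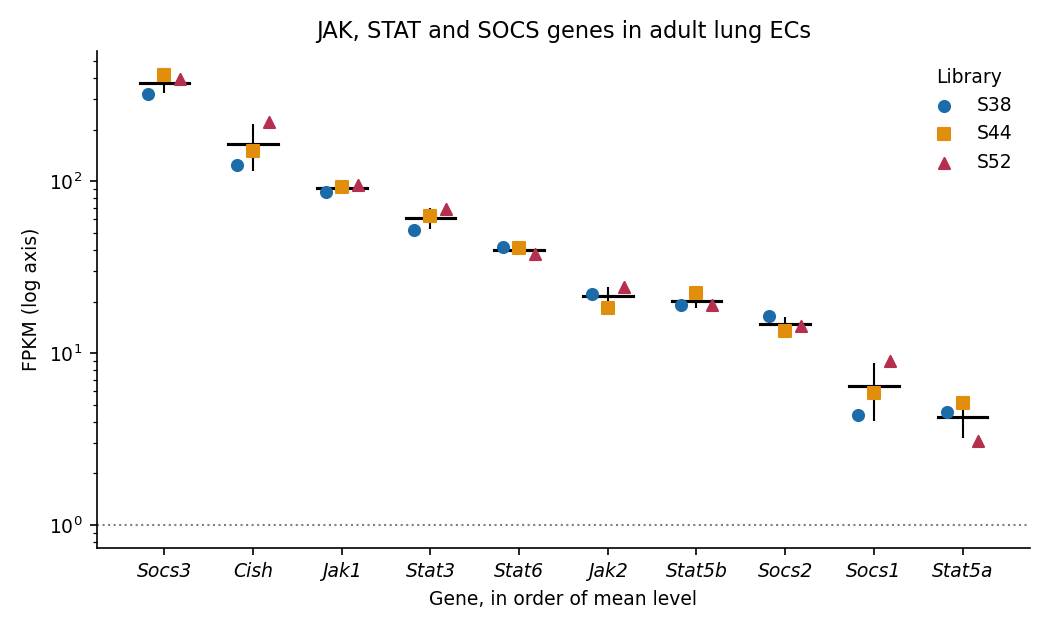
FPKM (log axis) of the 10 genes in each of the 3 libraries, in order of mean level; horizontal lines are means and vertical lines SDs over the libraries, and the dotted line is at 1 FPKM. *Socs3* and *Cish* lie above all kinases and STATs, and *Socs1* and *Stat5a* are the lowest.

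STAT dimers bind the palindrome TTCNNNGAA, in which N is any base, and this motif was looked for in RefSeq promoter windows of GRCm38.p6 that run from 250 bases before to 50 bases after a gene's start. Of the 10 genes, 9 have such a window (*Socs2* does not), and the motif was present for 2, both of them feedback inhibitors. The 2 stretches of 30 bases are shown because they hold these motifs, in capitals, on the strand of the gene. The first lies at chr9:107296654-107296683 (plus strand) and the second at chr11:117969502-117969531 (minus strand).
Cish: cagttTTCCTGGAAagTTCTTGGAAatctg
Socs3: agaaaccagccTTCTTAGAAgggagggggg
In *Cish* a pair of motifs 2 bases apart begins at the RefSeq start itself, chr9 position 107296659, although the gene as GENCODE gives it begins further upstream. In *Socs3* a single motif spans 154 to 146 bases before the start at chr11 position 117969366. It lies within the gene as GENCODE gives it, whose start on the minus strand is at 117970047. The palindrome reads alike on both strands and is short, and 8.30% of all 32851 windows hold it, whereas 150 windows (0.457%) hold 2 or more. A match is a description of the letters and says nothing about binding in these cells.

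S52 stood apart from the other libraries in genes of other cells. Low FPKM values gave estimates of 38000000, 38900000 and 33900000 fragments for S38, S44 and S52 respectively. The median of 10 endothelial markers was 378, 393 and 379 FPKM in the order S38, S44 and S52. Single endothelial markers differed more, since in S52 *Kdr* and *Cldn5* were lowest and *Erg* and *Emcn* highest. All 10 leukocyte markers, all 4 platelet markers, all 5 alveolar type 2 markers and all 4 airway markers were lowest in S52. Leukocyte markers summed to 1148, 874 and 192 FPKM in that order, most of it from *Lyz2* (1047, 780 and 166 FPKM), which alveolar type 2 cells also express. The median leukocyte marker was at 11.1, 8.11 and 1.24 FPKM, and *Cd3e* of T cells was listed at 0 in S52. Platelet markers summed to 1692, 1345 and 37.96 FPKM. Fewer cells of a type and less RNA per cell cannot be told apart in such bulk libraries. Values of the pathway genes are therefore set beside these markers where they move the same way.

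All 10 genes had a mean of at least 1 FPKM, against 48.3% of all genes in the table, and 8 reached 10 FPKM, against 25.7%. Their median was 30.8 FPKM, and the median of all genes at 1 FPKM or above was 11.2 FPKM. The order of the means ran from *Socs3* through *Cish*, *Jak1*, *Stat3*, *Stat6*, *Jak2*, *Stat5b*, *Socs2* and *Socs1* to *Stat5a*. Of the 45 pairs, 43 kept the same order in all 3 libraries with ranges that did not overlap. The other 2 pairs, *Jak2* with *Stat5b* and *Socs1* with *Stat5a*, overlapped and changed order between libraries, so neighbours within each of these pairs do not differ beyond their spread. An exact sign-flip test over 3 libraries cannot give a two-sided p below 0.25, so the order is a description.

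*Socs3*, which encodes an inhibitor of receptors that signal through gp130, was the highest of the 10 genes. S38 held 320.0 FPKM, S44 413 and S52 394, with a mean of 376 ± 49.0 FPKM (SD, n = 3). Its mean ranked 287 among all genes, above 98.8% of them. The lowest library of *Socs3* was still above the highest of each other gene described here. The gene lies on the minus strand of chromosome 11 (GRCm38, 117966079 to 117970047), and its 1 basic GENCODE transcript has 2 exons and 2552 bp. Among all genes, the closest in level over the 3 libraries was *Bst2*, the interferon-induced membrane protein tetherin, at 326, 408 and 400.0 FPKM. Their log2(FPKM + 1) differed by at most 0.029 in any library, and 2 genes in all lay within 0.1 of *Socs3*.

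*Cish*, which encodes the STAT5-induced inhibitor CIS, came second. S38 held 125 FPKM, S44 149 and S52 222, with a mean of 165 ± 50.8 FPKM (SD, n = 3). S52 was well above the other libraries, by 0.83 on the log2 scale against S38 and 0.57 against S44. *Socs3* exceeded *Cish* 2.56-fold in S38, 2.77-fold in S44 and 1.77-fold in S52. The *Cish* gene (chromosome 9, 107296026 to 107302784, plus strand) shares 479 exonic bases with the antisense gene *Gm17041* and 103 with the pseudogene *Gm17040*. Libraries without strand information cannot tell such reads apart, and neither of these genes has a row of its own.

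*Socs1*, whose product inhibits JAKs directly and restrains interferon signalling, was far lower. S38 held 4.38 FPKM, S44 5.89 and S52 9.03, with a mean of 6.43 ± 2.37 FPKM (SD, n = 3). Its values rested on an estimated 458, 630 and 844 fragments. Counting error on these is 4.67% or less, and the variation between animals or preparations is not known. S52 was the highest library, as for *Cish*, and the ratio of *Cish* to *Socs1* was 28.5, 25.3 and 24.6 in the 3 libraries. *Socs2*, which encodes a brake on growth hormone signalling, showed a different profile, with 16.4 FPKM in S38, 13.5 in S44 and 14.3 in S52, a mean of 14.8 ± 1.505 FPKM (SD, n = 3). *Socs2* exceeded *Socs1* 3.75-fold in S38 but 1.59-fold in S52.

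The remaining SOCS genes add little to the family's total. *Socs3* made up 63.6% ± 4.29 (SD, n = 3) of the summed FPKM of 8 genes (*Socs1* to *Socs7* and *Cish*), and *Cish* 27.6% ± 4.91 (SD, n = 3). Together they held 90.0%, 91.5% and 92.1% of the sum in S38, S44 and S52, a share that no scaling of the libraries can alter. *Socs5* was at 15.3 FPKM and the means of *Socs4*, *Socs6* and *Socs7* lay between 4.76 and 5.57 FPKM.

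**Figure D2:**
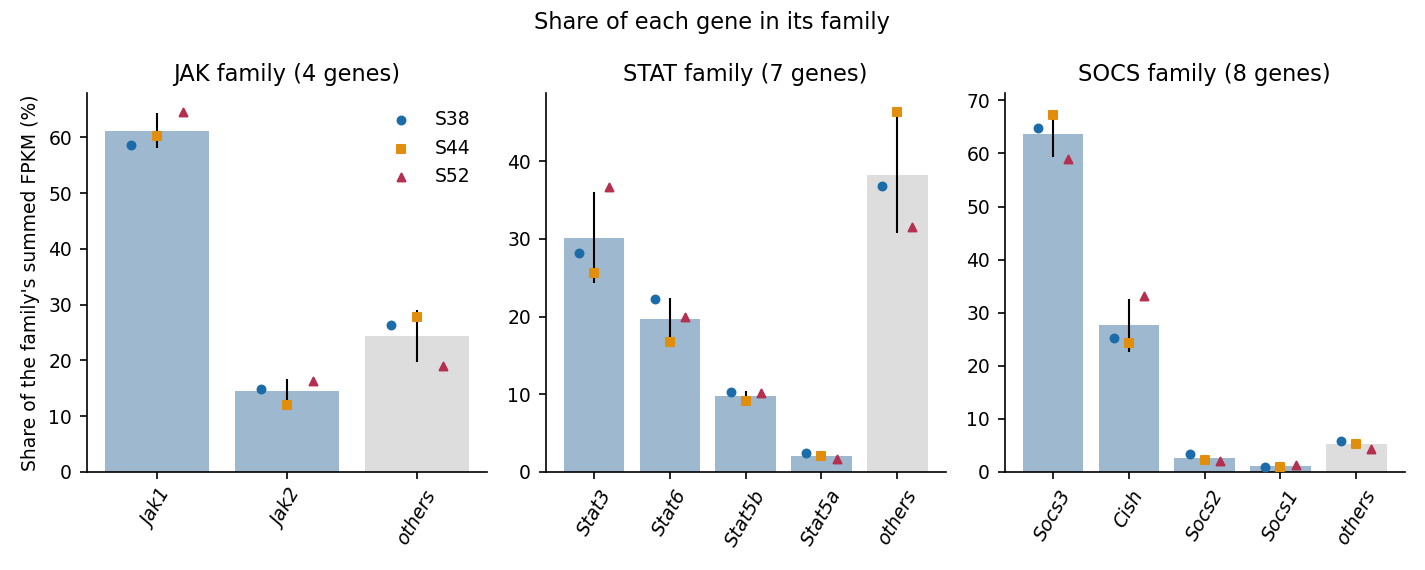
Share (%) of each gene in the summed FPKM of its family; bars are means over 3 libraries, error bars SDs, and points the libraries. Blue bars are the 10 genes described and grey bars the rest of each family combined. *Jak1* and *Socs3* take over 58% of their families in every library, while *Stat3* takes at most 36.7% of the STAT sum.

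*Jak1*, the kinase used by interferon, gp130 and common gamma chain receptors, was the dominant JAK. S38 held 86.1 FPKM, S44 92.4 and S52 95.4, with a mean of 91.3 ± 4.73 FPKM (SD, n = 3), a spread of 5.18% of the mean. *Jak1* took 58.6%, 60.3% and 64.6% of the summed FPKM of the 4 JAK genes. *Jak2*, which serves growth hormone and erythropoietin receptors, was at 22.0, 18.4 and 24.2 FPKM, a mean of 21.5 ± 2.91 FPKM (SD, n = 3). S44 was its lowest library. *Jak1* was above *Jak2* in every library, by 3.92-fold, 5.02-fold and 3.94-fold. *Jak1* lies on the minus strand of chromosome 4 (101152367 to 101265282) and *Jak2* on the plus strand of chromosome 19 (29251828 to 29313080).

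The other JAKs were *Jak3*, the partner of the common gamma chain and best known from lymphocytes, and *Tyk2*. *Jak3* held 28.2, 31.9 and 19.98 FPKM in the same library order, which put its mean of 26.7 FPKM above that of *Jak2*, although S52 reversed that order. S52 was its lowest library, as it was for the leukocyte markers. *Il2rg*, the common gamma chain itself, was at 130.2, 138 and 117 FPKM. The interleukin-2 receptor chain *Il2rb*, found mainly on lymphocytes and named after its values were seen, was at 1.91, 1.55 and 0.336 FPKM. The leukocyte markers' part in these values was not tested. *Tyk2* had a mean of 9.79 FPKM.

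*Stat3*, which carries gp130 and other cytokine signals, was the highest of the STAT genes described. S38 held 52.5 FPKM, S44 62.8 and S52 69.3, with a mean of 61.5 ± 8.51 FPKM (SD, n = 3). *Stat6*, the effector of interleukin-4 and interleukin-13, followed at 41.5, 40.9 and 37.6 FPKM, a mean of 40.0 ± 2.13 FPKM (SD, n = 3). The libraries of the 2 genes did not overlap, and *Stat3* exceeded *Stat6* 1.26-fold, 1.53-fold and 1.84-fold. The highest library of *Stat6* was 1.11-fold above the lowest as deposited, a smaller fold than for all but 7.76% of genes at 1 FPKM or above, but 1.41-fold with all libraries set to one sum.

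*Stat5a* and *Stat5b* encode closely similar factors used by growth hormone, prolactin and several interleukins. *Stat5b* stood at 19.1 FPKM in library S38, 22.5 in S44 and 19.1 in S52, a mean of 20.2 ± 1.94 FPKM (SD, n = 3). *Stat5a* was at 4.53, 5.14 and 3.10 FPKM, a mean of 4.26 ± 1.05 FPKM (SD, n = 3), and its highest library did not reach the lowest of *Stat5b*. The ratio of *Stat5b* to *Stat5a* was 4.22, 4.37 and 6.16 in the order S38, S44 and S52. The 2 genes share sequence: 598 of the 3838 windows of 51 bases, the read length, in the longest *Stat5a* transcript (15.6%) also occur in *Stat5b*, so the division of such reads between them is uncertain. No other pair among the 10 genes of the same family shared a window of that length. *Stat5a* was lowest in S52, as were the leukocyte, platelet and alveolar type 2 markers, and their part in it was not tested.

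*Stat5b*, *Stat5a* and *Stat3* lie side by side on chromosome 11 of GRCm38, within 159 kb. *Stat5b* occupies 100780731 to 100850724 on the minus strand, *Stat5a* 100859351 to 100885169 on the plus strand and *Stat3* 100885098 to 100939540 on the minus strand. The 3' ends of *Stat5a* and *Stat3* overlap by 72 bases, where reads without strand information cannot be assigned to one or the other. Levels did not follow this order of the genes, since *Stat5a*, in the middle, was lowest in each library. *Stat6* is on chromosome 10 (127642986 to 127660957, plus strand), as is *Socs2* (95385362 to 95417180, minus strand), and *Socs1* is on chromosome 16 (10782240 to 10785536, minus strand).

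The summed FPKM of the STAT family was less dominated by 1 gene than those of the JAK and SOCS families. *Stat3* held 28.1%, 25.6% and 36.7% of the sum in the same library order, and *Stat6* 22.3%, 16.7% and 19.9%. The share of *Stat5b* was 9.85% ± 0.595 (SD, n = 3) and that of *Stat5a* 2.06% ± 0.397 (SD, n = 3). The share of *Stat3* was thus above that of *Stat6* in each library, by the widest margin in S52. Of the 9 other genes of the 3 families, 8 had a mean of at least 1 FPKM, against 48.3% of all genes. Among the 9, 4 reached 10 FPKM, against 25.7% of all genes, including *Stat2* at 28.4 FPKM. *Stat4* was below 1 FPKM in every library.

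The spread between libraries was near that of other genes. The highest library was over 2-fold above the lowest for 1 gene, *Socs1* (2.06-fold), against 20.1% of the 11770 genes at 1 FPKM or above. The median fold was 1.30 for the 10 genes and 1.40 for all genes at that level. Next came *Cish* at 1.78-fold and *Stat5a* at 1.66-fold, and the other 7 genes lay between 1.11-fold and 1.32-fold. *Socs1* is close to the threshold, and it fell below 2-fold without S38 or without S52, with a pseudocount of 1 and when all libraries were set to one sum.

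**Figure D3:**
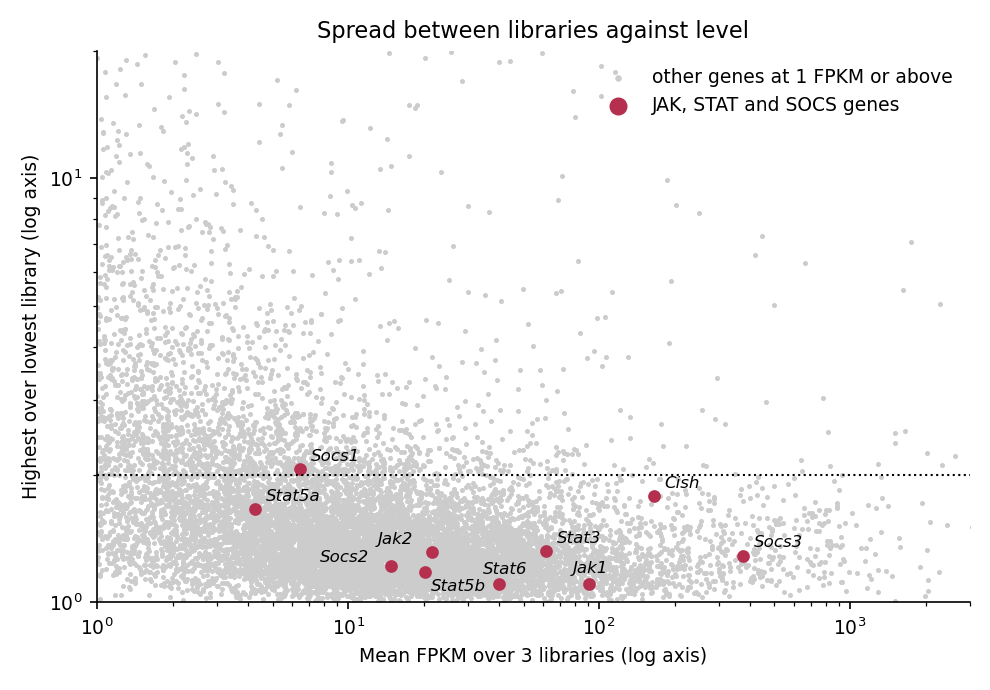
Highest over lowest library (log axis) against mean FPKM (log axis) for genes at 1 FPKM or above, with the 10 genes in red; 310 of 11770 genes fall outside the axes or are listed at 0 in a library. Only *Socs1* lies above the dotted line at 2-fold.

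Set against the mean of S38 and S44 on the log2(FPKM + 1) scale, S52 had a median difference of 0.10 over the 10 genes and of -0.08 over all genes at 1 FPKM or above. *Socs1* at 0.71 and *Cish* at 0.70 were furthest above, and *Stat5a* at -0.51 furthest below. *Stat3* and *Jak2* were at 0.26 and 0.25, and the other 5 genes between -0.13 and 0.10. The sign for each gene was the same as deposited, with libraries rescaled to one sum and with libraries rescaled by their median ratio. The marker lists of other cells moved further, with medians of -4.85 for platelet, -2.11 for alveolar type 2, -2.00 for airway, -1.33 for leukocyte and -0.92 for erythroid genes. The endothelial list had a median of 0.02, but its genes went both ways, with *Cldn5* at -0.65, *Kdr* at -0.64, *Emcn* at 0.66 and *Erg* at 0.72, about as far from 0 as *Socs1* and *Cish*. These 4 were named after their values were seen. The fibroblast list was at -0.22 and the lymphatic list at 0.07. The mural list was at 0.70, with 3 of its 4 genes highest in S52, as *Socs1* and *Cish* were, and its part in their values was not tested.

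**Figure D4:**
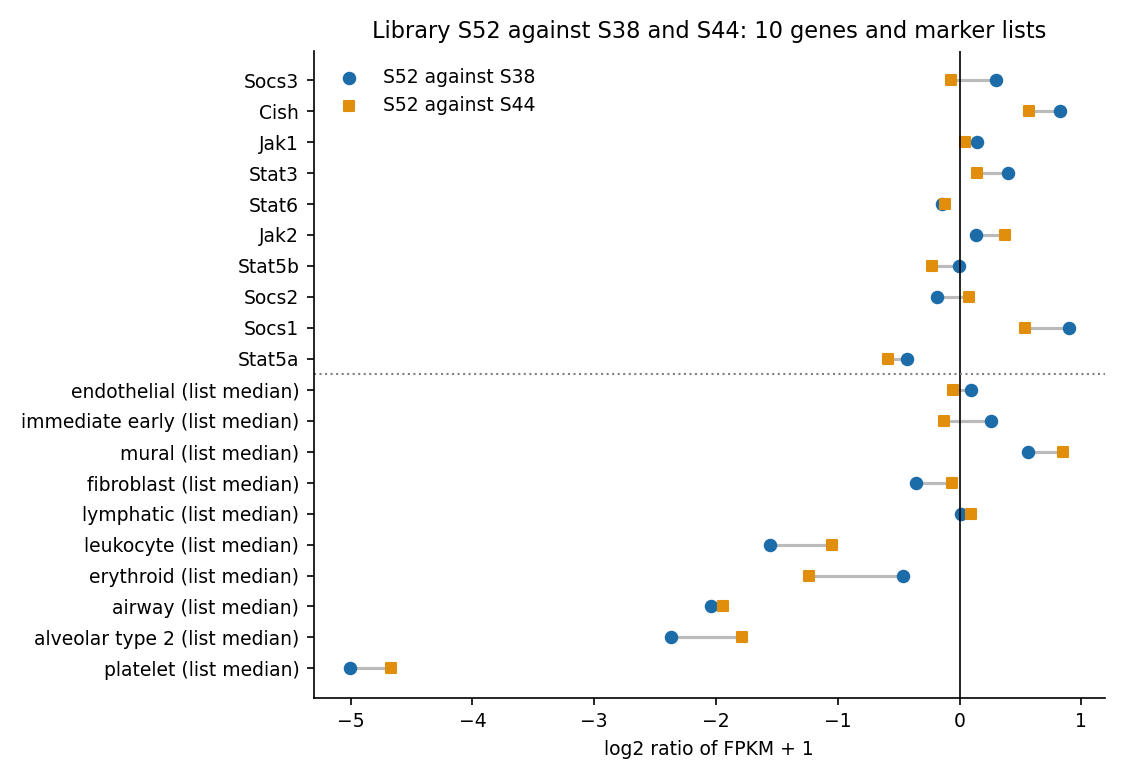
log2 ratio of FPKM + 1 in S52 against S38 (circles) and against S44 (squares) for the 10 genes and, below the dotted line, the medians of marker lists. The 10 genes lie between -0.59 and 0.90, and the platelet list is near -5.01 and -4.67.

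*Socs3* belongs to the genes that cells can induce within minutes, and other genes of the immediate early and heat shock response were set beside it. The 10 such genes had a median of 357 FPKM, led by *Ier3* (1294 FPKM), *Atf3* (775 FPKM) and *Zfp36* (519 FPKM). *Ier3* was highest in S52 (884, 1124 and 1873 FPKM by library), and *Fosb* likewise, at 219, 187 and 393 FPKM, but only 3 of the 10 genes were highest there and 3 were lowest. As deposited, *Egr1*, *Atf3*, *Zfp36* and *Hspa1a* were lowest in S38 and highest in S44, as *Socs3* was. The list did not move as one, since *Fos* and *Fosb* were lowest in S44 and *Jun*, *Ier2* and *Hspa1b* lowest in S52. These genes were named after their values were seen. Once all libraries were set to one sum, *Socs3* was highest in S52, and its highest library was 1.08-fold above its lowest. The match with *Egr1*, *Atf3*, *Zfp36* and *Hspa1a* was not examined under that scaling. All libraries were made from dissociated tissue, and the part of this response in the level of *Socs3* was not tested.

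The kinases are bound by receptors of 4 groups. Of 42 receptor genes in 4 lists, 21 had a mean of at least 1 FPKM, 15 reached 10 FPKM and 3 were listed at 0 in all libraries. Over all genes the shares were 48.3% and 25.7%, so the receptors as a set were near the background at 1 FPKM. In the gp130 group, *Il6st*, which encodes gp130, stood at 163 FPKM in library S38, 180 in S44 and 140.2 in S52. The leukaemia inhibitory factor receptor *Lifr* was at 32.9, 30.6 and 26.5 FPKM and the oncostatin M receptor *Osmr* at a mean of 20.4 FPKM. The interleukin-6 binding chain *Il6ra*, named after its values were seen, was at 0.727, 0.795 and 0.766 FPKM, below 1 FPKM in each library. Of the 8 genes of this group, 4 were at 1 FPKM or above.

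Of 15 receptors that signal with the common gamma or beta chains or share their ligands, 7 were at 1 FPKM or above, beside 48.3% of all genes. *Il2rg* was highest at 128 ± 10.6 FPKM (SD, n = 3), followed by *Il4ra*, the interleukin-4 receptor that engages *Stat6*, at 86.1 FPKM and by *Il3ra* at 20.5 FPKM. Of 6 homodimeric receptors, 4 passed, led by the growth hormone receptor *Ghr*, which signals through *Jak2* and *Stat5b*, at 78.1, 88.2 and 90.4 FPKM. The leptin receptor *Lepr* was at 38.9 FPKM. Among 13 receptors for interferons and the interleukin-10 and interleukin-12 families, 6 passed, with *Ifnar2* at 67.7 FPKM, *Ifngr1* at 64.2 FPKM and *Il10rb* at 45.5 FPKM as the highest.

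Ligands were low by comparison. Of 29 ligand genes, 6 had a mean of at least 1 FPKM, against 48.3% of all genes. A further 9 were listed at 0 in all libraries, as were 7183 of all 24346 genes. The median of the ligand genes was 0.151 FPKM. *Il6* was the only one to reach 10 FPKM, at 33.7 FPKM in library S38, 16.7 in S44 and 17.1 in S52, and S38 was 2.02-fold above S44. It was followed by *Il15* at 7.53 FPKM and *Clcf1* at 6.66 FPKM. At these depths 3 fragments, the limit that 0 fragments would allow, correspond in a gene of 2000 bp to 0.0429, 0.0419 and 0.0478 FPKM by library, which covers counting error only.

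**Figure D5:**
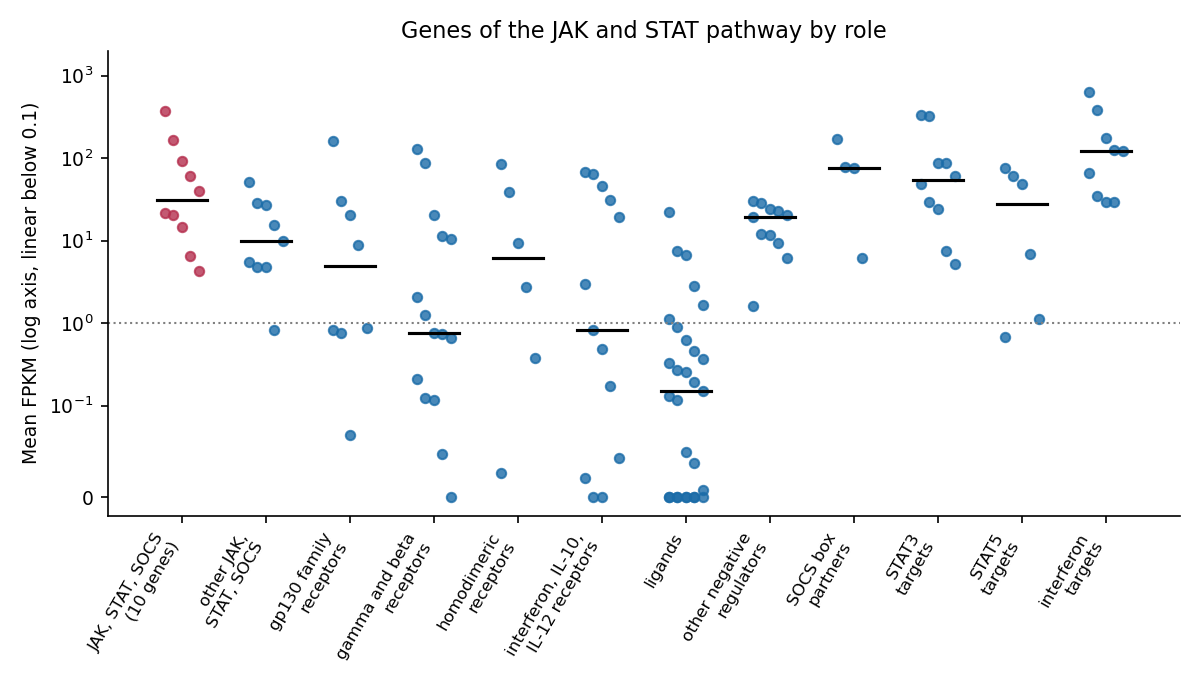
Mean FPKM (log axis, linear below 0.1) of each gene by its role in the pathway, with list medians as lines and the 10 genes in red; the dotted line is at 1 FPKM. Ligands have a median of 0.151 FPKM and interferon targets one of 121 FPKM.

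The genes listed here as negative regulators outside the SOCS family were all present. Each of 11 genes had a mean of at least 1 FPKM, against 48.3% of all genes, with a median of 19.5 FPKM. None was over 2-fold between libraries as deposited, against 20.1% of all genes at 1 FPKM or above. *Ptpn1* at 1.95-fold and *Pias2* at 1.94-fold were just under that threshold, and the count was not repeated with other scalings. The phosphatase *Ptpn11* (SHP2) was at 30.5 FPKM, the adaptor *Sh2b3* (LNK) at 28.3 FPKM and the phosphatase *Ptpn1* (PTP1B) at 24.4 FPKM. The ubiquitin ligase that SOCS boxes recruit was represented by 4 genes, since the elongins have rows under their older symbols. *Tceb2* (elongin B) was at 173 FPKM, *Tceb1* (elongin C) at 77.4 FPKM and *Rnf7* at 75.4 FPKM. The cullin *Cul5*, named after its values were seen, was much lower, at 6.54 FPKM in S38, 5.61 in S44 and 6.36 in S52.

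Genes known as STAT targets were abundant, with no contrast that could assign them to a STAT here. All 10 STAT3 targets were at 1 FPKM or above, against 48.3% of all genes. Their median was 54.4 FPKM, led by *Junb* (331 FPKM), *Mcl1* (324 FPKM) and *Cebpd* (87.8 FPKM). *Lrg1* was the one that spanned over 2-fold, at 25.6, 37.0 and 10.8 FPKM, against 20.1% of all genes at 1 FPKM or above. Of 6 STAT5 targets, 2 of which are also in the STAT3 list, 5 passed, with *Ccnd1* (75.4 FPKM), *Bcl2l1* (60.5 FPKM) and *Pim1* highest. *Pim1* stood at 35.4 FPKM in library S38, 40.0 in S44 and 69.7 in S52, so that S52 was highest. The list did not move as one, since 3 of its 6 genes were highest in S52 and 2 lowest there. *Bcl2l1* was among the latter, at 60.2, 73.3 and 48.0 FPKM in the order S38, S44 and S52. The libraries of these 2 genes were picked out after their values were seen. All 9 interferon targets passed 10 FPKM, against 25.7% of all genes, with *Bst2* at 378 FPKM and *Gbp2* at 175 FPKM. *Irf1*, the highest at 639 FPKM, was at 404, 636 and 877 FPKM and had its highest library in S52.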

How the data were processed

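Adult mouse lung ECs were profiled by poly-A selected, unstranded RNA-seq with paired reads of 51 bp, in 3 libraries of 1 group taken from the sample labels. The deposited table gives FPKM on mm10 for each gene symbol, 1 column per library. The submitters' processing notes name Trimmomatic 0.36, TopHat2 2.1.0 and Cufflinks 2.2.1, whereas the paper's methods describe STAR and HTSeq counting for its own normalized values. The annotation behind the FPKM values is not given in the sources used here. FPKM does not state the depth, and reads shared by paralogues are divided by estimation, which limits *Stat5a* and *Stat5b*.

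Values were used as deposited, in Python 3.11.15 with pandas 2.3.3. Means and SDs are on the FPKM scale, and log2 differences use a pseudocount of 1. Levels were read at 1 and 10 FPKM and folds between libraries at 2. With 1 group no test was run. Fragments were estimated from 7077 genes with a single GENCODE M21 transcript of 800 to 4000 bp as the step that makes low values whole. At that step 74.9% to 78.4% of the low values came out whole (tolerance 0.15). Depth was recovered within 0.0825% on data simulated as whole fragments over known lengths. The deposited values met that condition only in part, so this figure is not the error of the depths given. Positions are those of GENCODE M21 (GRCm38), and promoter windows those of RefSeq (GRCm38.p6).

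The members, the 21 lists of pathway and marker genes, the thresholds and the alternatives were chosen with earlier results of these data known. The named genes are the 10 members, the highest 3 of each pathway list, genes of a list at 10 FPKM or above with a fold over 2, markers listed at 0, and the gene nearest in level to a member. Some genes that this rule names are not reported here. Markers of other cells are mostly given as list sums and medians. *Elob* and *Eloc* were matched as *Tceb2* and *Tceb1*. Alternatives were other thresholds, pseudocounts and scalings, and leaving out each library.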

Additional observations from a re-analysis of the deposited data

How the results depend on the processing

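The count of 10 genes at 1 FPKM or above held at 0.1 FPKM, under both scalings and without any 1 library, and was 8 at 10 FPKM. The count of genes over 2-fold between libraries, 1 in the values as deposited, was 0 after rescaling each library to a sum of 1000000 and 0 with a pseudocount of 1, 3 with a fold threshold of 1.5, and between 0 and 1 when a replicate was left out (0 without S38 or S52, where fewer libraries enter the range). The number of neighbours whose ranges overlap, 2 as deposited, was 3 after rescaling to one sum, and between 1 and 2 when a replicate was left out (1 without S38 or S44). The median log2 difference of S52 ranged from 0.04 to 0.16 over the alternatives, with 0.06 without S38 and 0.14 without S44. Means of single genes moved by less than their SD in all 10 cases with the median ratio; leaving out 1 of 3 libraries cannot move a mean by its SD, so that setting says nothing of their stability. Rescaling to one sum lowered them to between 0.717 and 0.740 of the deposited level, over 1 SD for 8 of 10, because the column sums exceed 1000000, from 1153890 to 1603600 FPKM. Under that scaling *Jak1*, *Jak2*, *Stat5a* and *Stat5b* became highest in S38, which has the smallest sum and is lowered least by that step. *Socs3* became highest in S52. No paired analysis was possible because all libraries are of 1 group. Depth limits the genes listed at 0 more than the 10 genes described, whose lowest value rests on an estimated 392 fragments.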

Other observations

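Among the interferon-related genes of the lists, the library with the highest value was not the same for all. *Ifit1* held 23.5, 39.9 and 25.1 FPKM in the order S38, S44 and S52, *Ifit3* at 21.5, 40.0 and 26.7 FPKM, and *Usp18*, an ISG15 protease that restrains the type I interferon receptor, at 18.4, 30.6 and 19.3 FPKM, each highest in S44. *Isg15* was at 77.5, 135 and 151 FPKM, highest in S52 as *Irf1* was. These genes were named after their values were seen, and with 1 library at each level no difference was tested.

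The STAT palindrome was also present in promoter windows of other listed genes, among them 3 of 11 windows of the interferon targets (*Irf1*, *Bst2* and *Psmb8*), 3 of 10 windows of the interferon, interleukin-10 and interleukin-12 receptors (*Ifnar1*, *Ifnar2* and *Il12rb2*), and none of the 11 windows of the STAT3 targets. Both windows of *Bcl6*, a STAT5 target, held it, one with 3 motifs and the other with 1. With so few windows these counts are descriptions beside the 8.30% of all windows.

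The nearest genes in level to other members were *Ddb1* for *Jak1*, at 85.7, 93.4 and 95.4 FPKM, and *Pvr* for *Stat3*, at 52.9, 64.1 and 68.0 FPKM in the same order. For *Cish* no gene lay within 0.1 in log2(FPKM + 1) in every library, the closest being *Slc38a2*, a neutral amino acid transporter, with a largest difference of 0.13.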
